A study of Mus musculus with 8 samples.

Results

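The genes described here encode receptors for glutamate that signal through G proteins: Grm2, Grm3, Grm4, Grm5, Grm7 and Grm8. They were taken by symbol from the table of estimated read counts, which lists 18983 genes, and all 6 of 6 were found and passed the filter on low counts. The table holds 8 mRNA libraries of the central amygdala, the output nucleus of the amygdala, known for its part in fear and in feeding. The mice were of strain 129SV and 7 months of age. They had been given a high fat diet for 20 weeks (4 libraries) or a normal chow diet for 20 weeks (4 libraries), and the libraries of each diet carry the numbers 1, 2, 5 and 8. The labels name no allele or transgene, and do not say whether a library is 1 animal or a pool, so the p-values below take in just the variation among these libraries, some of which may be technical.

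Metabotropic glutamate receptors are class C G protein-coupled receptors that tune transmission, beside the ion channels that glutamate opens directly. They fall into groups I, II and III by sequence, coupling and pharmacology. Group I, which includes Grm5, couples to Gq and phospholipase C and sits mostly on the postsynaptic side. Group II (Grm2 and Grm3) and group III (Grm4, Grm6, Grm7 and Grm8) couple to Gi/o, lower cyclic AMP, and act largely on nerve endings as brakes on release. Grm3 is also expressed by astrocytes, and Grm6 is the receptor of retinal bipolar cells. In the amygdala, these receptors are known for roles in fear learning and its extinction.

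Library totals ran from 17451162 to 19562429 estimated counts. Pairs of libraries of 1 diet differed by a chi-square of 16.2 to 198 per degree of freedom, so none was a repeat of another. Markers of neighbouring tissue differed widely between libraries, mostly within chow. All 10 markers of pallial excitatory neurons (neurons of cortex and basolateral amygdala) had counts in every library, and their summed level, in CPM (counts scaled to equal library totals), ran from 1098 to 3020 in the high fat libraries. On chow it was 472, 2180, 399.8 and 230.4 in replicates 1, 2, 5 and 8. For all 10 striatal projection neuron markers the sums were 238 to 1303 and 408 to 3835 CPM. The 10 central amygdala markers all had counts and summed to 501 to 760.2 CPM (high fat diet) and 522 to 1047 CPM (chow). Chow replicate 2 thus stood with the high fat libraries and apart from chow replicates 1, 5 and 8, and the diet differences of the receptor genes are given with and without it. Chow replicate 1 stood apart in markers of tissue that lines the ventricles, all of which had counts in every library. Its 5 choroid plexus markers summed to 6563 CPM, beside 90.5 to 3084 CPM in the other libraries, and its 4 ependyma markers to 169 CPM, beside 8.71 to 28.9 CPM.

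The group II genes Grm2 and Grm3 differed most in how steady they were across libraries, and their promoters are shown for that reason. The windows run from 250 bases before to 50 bases after the start of transcription, from RefSeq on build GRCm38.p6, the same build as mm10. Both genes lie on the minus strand, and capitals mark the GC box, GGGCGG on either strand. Grm2 is at chr9:106656060-106656359 and Grm3 at chr5:9725303-9725602.
Grm2: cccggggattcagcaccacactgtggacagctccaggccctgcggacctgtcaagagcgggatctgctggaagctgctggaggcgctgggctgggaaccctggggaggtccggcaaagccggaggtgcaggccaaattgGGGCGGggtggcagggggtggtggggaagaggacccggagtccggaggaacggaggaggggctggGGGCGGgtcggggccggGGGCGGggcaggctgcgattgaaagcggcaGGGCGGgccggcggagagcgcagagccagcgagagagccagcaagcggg
Grm3: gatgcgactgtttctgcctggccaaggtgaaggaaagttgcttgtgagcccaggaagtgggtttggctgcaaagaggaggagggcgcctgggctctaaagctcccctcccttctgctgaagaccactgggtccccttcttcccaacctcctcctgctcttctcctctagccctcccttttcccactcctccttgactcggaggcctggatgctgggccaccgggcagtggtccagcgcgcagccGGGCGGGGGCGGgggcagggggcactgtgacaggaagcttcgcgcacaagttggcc
The Grm2 window holds 4 GC boxes and the Grm3 window 2, of which the pair in Grm3 lie end to end, and 35.7% of 32851 promoter windows hold at least 1. Neither window holds the cyclic AMP response element TGACGTCA, found in 1.79% of windows, or an E-box, CANNTG, found in 72.3%, with both strands searched. The Grm2 window has 72% G and C and 22 CpG sites, and that of Grm3 has 63.7% and 11, against medians of 52.7% and 7 over all windows. Matches describe the letters only. Of the 6 genes, 4 had a window in the RefSeq table, and Grm4 and Grm5 had none.

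The 6 genes are spread over the genome (mm10 coordinates from RefSeq), and the table lists Grm2, Grm3, Grm4, Grm5, Grm7 and Grm8 under the Entrez identifiers 108068, 108069, 268934, 108071, 108073 and 14823. Grm5 spans 551083 bases of chromosome 7, 87583981 to 88135063, on the plus strand. Grm2 takes 11576 bases of chromosome 9, 106644534 to 106656109, while its partner Grm3 takes 240117 bases of chromosome 5, 9485236 to 9725352. Grm4 lies on chromosome 17, 27422387 to 27513826. Grm7 (110645349 to 111567230) and Grm8 (27275121 to 28135146) are both on chromosome 6 and span 921882 and 860026 bases. Reads were 50 bases long per the labels, and no stretch of 50 bases in GENCODE transcripts was common to any pair of these 6 genes or to one of them and Grm6. Of the Grm2 stretches, 8.53% were shared with another gene, the antisense transcript Gm28111, which is not a row of the table; since strand use is not stated, reads from it cannot be told apart from those of Grm2 there. For the other 5 genes the shared part was between 0 and 1.37%.

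Grm5 was the most abundant of the 6 per unit of length. Levels between genes are compared as CPM per kilobase, with the length that the deposited FPKM imply. By this measure Grm5 was at 30.8 ± 10.9, Grm3 at 15.6 ± 3.08, Grm7 at 13.6 ± 2.83, Grm4 at 9.09 ± 4.25, Grm2 at 8.71 ± 7.49 and Grm8 at 3.49 ± 0.978 CPM per kilobase (SD, n = 8). Grm5 was above Grm3 in 7 of 8 libraries, the exception being chow replicate 1. All 5 pairs of neighbours in this order had ranges that overlap. Grm3 was above Grm7 in 5 of 8 libraries, Grm7 above Grm4 in 6, Grm4 above Grm2 in 5 and Grm2 above Grm8 in 7. In the authors' deposited table the mean TPM of Grm5 was 92.0 on high fat diet against 66.5 on chow, and that of Grm8 was 8.20 against 9.43.

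**Figure D1:**
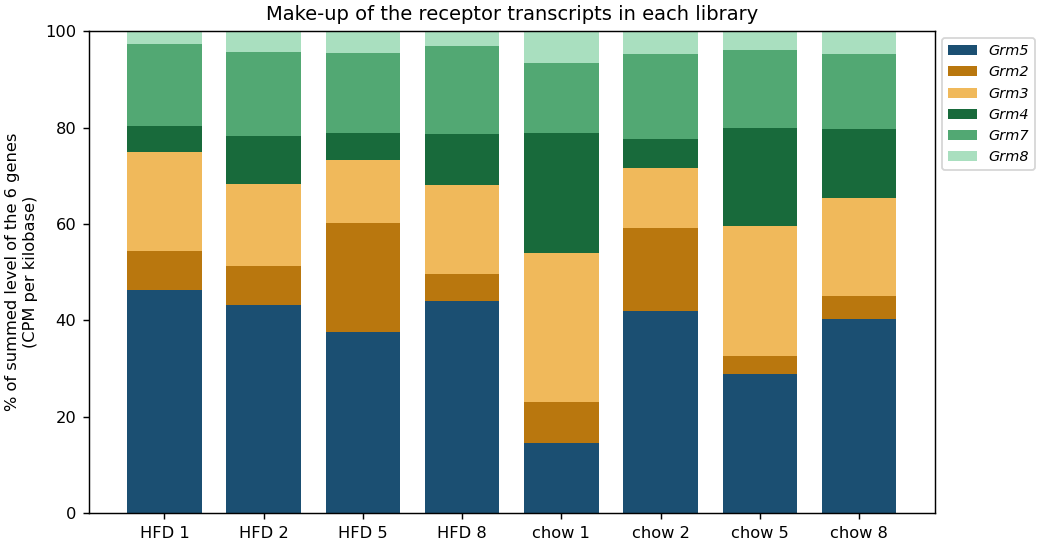
Share of each gene in the summed level of the 6 receptor genes, in percent of CPM per kilobase, for each library (HFD, high fat diet). Grm5 holds 14.4% in chow replicate 1 and up to 46.3% in the other libraries, while Grm7 stays between 14.5% and 18.3%.

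Of the 6 shares, that of Grm7 moved least, from 14.5% to 18.3% over the 8 libraries. Its mean was 17.3 ± 0.746% of the summed level per kilobase on high fat diet and 16.0 ± 1.27% on chow (SD, n = 4 each). Grm5 held 42.7 ± 3.73% and 31.3 ± 12.7%. Grm4 held 7.77 ± 2.78% and 16.4 ± 8.12%. The share of Grm2 ran from 3.64% in chow replicate 5 to 22.8% in high fat replicate 5. Shares of 1 sum are tied to each other, so a high share of one gene lowers the rest.

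Grm5 encodes the group I receptor that binds Homer scaffolds and releases calcium from internal stores. In high fat replicates 1, 2, 5 and 8 its level was 308, 269, 302 and 238 CPM. In chow replicates 1, 2, 5 and 8 it was at 66.2, 322, 175 and 243 CPM. Both the lowest and the highest library were on chow, and the 4 high fat libraries lay inside that range. The means were 279 ± 32.3 and 202 ± 109 CPM (SD, n = 4 each), with a log2 fold of 0.47 ± 0.39 (SE) that did not pass (adjusted p = 0.764 by edgeR). Without chow replicate 1, the library with the highest choroid plexus and ependyma sums, that fold was 0.17. The same library had the highest striatal, central amygdala and microglia sums as well, at 3835, 1047 and 509 CPM. The part of these tissues and cells in the Grm5 values was not tested.

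Grm2 encodes a presynaptic receptor of group II. High fat replicates 1, 2, 5 and 8 held it at 22.4, 21.7, 77.0 and 12.6 CPM. With chow the 4 values were 16.7, 56.0, 9.27 and 12.5 CPM. One library of each diet, high fat replicate 5 and chow replicate 2, stood far above the rest, and the other libraries of both diets overlapped. The highest library was 8.31 times the lowest, and 96.4% of the 15186 tested genes had a smaller SD of log2 CPM across the libraries. The log2 fold for diet was 0.50 ± 0.70 (SE; adjusted p = 0.846 by edgeR), with a 95% interval from -1.08 to 2.08. Leaving out high fat replicate 5 gave -0.32 and leaving out chow replicate 2 gave 1.38 (adjusted p = 0.975 and 0.257), so its sign rests on single libraries. The cortical transcription factor Emx1, picked from the pallial list after its values were seen, was also highest in those libraries, at 8.71 and 7.84 CPM, and at 0.337 to 5.17 CPM elsewhere. The pallial list as a whole summed to 1908 and 2180 CPM in those libraries and highest, to 3020 CPM, in high fat replicate 1. Averaged over its members as log2 CPM minus the mean of the 8 libraries, the list was at 1.24 in high fat replicate 1 and 1.13 in chow replicate 2, with high fat replicate 5 next. The part of pallial tissue in the Grm2 values was not tested. In bulk tissue, fewer cells of a type and less RNA per cell cannot be told apart.

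Grm3, the other group II receptor, is a reported target of the peptide N-acetylaspartylglutamate as well as of glutamate. Its levels were 61.6, 47.5, 47.1 and 45.1 CPM for high fat replicates 1, 2, 5 and 8. In the chow libraries, in the same order, it was at 63.3, 42.8, 73.3 and 54.8 CPM. High fat replicate 1 was above the other libraries of its diet, and the diets overlapped. The highest library was 1.71 times the lowest, and 43.5% of tested genes had a smaller SD. The log2 fold was -0.22 ± 0.18 (SE; adjusted p = 0.763 by edgeR). All 8 astrocyte markers had counts in every library, and their sums were 2214 to 2728 CPM (high fat diet) and 2244 to 2834 CPM (chow). Like Grm3, this sum was highest in chow replicate 5, as were those of the oligodendrocyte, GABAergic and thalamic lists, at 18669, 2394 and 636 CPM. The oligodendrocyte and GABAergic sums, like Grm3, were lowest in chow replicate 2, at 3029 and 1213 CPM, while the astrocyte sum was lowest in high fat replicate 2. The part of these cells in the Grm3 values was not tested.

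**Figure D2:**
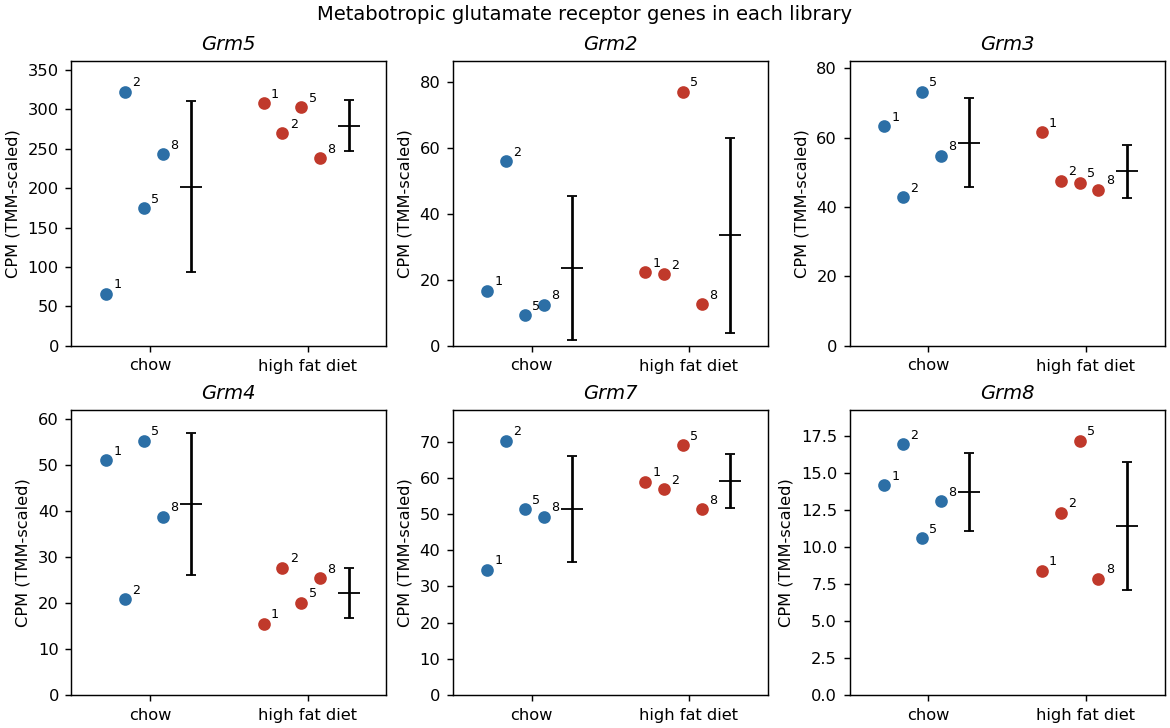
CPM of each receptor gene in each library, by diet, with library numbers beside the points and the mean ± SD (n = 4) as a bar to the right. Grm4 is at 15.5 to 27.7 CPM with high fat diet and at 38.7 to 55.3 CPM in 3 chow libraries, with chow replicate 2 at 20.9 CPM.

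Grm4, a group III receptor of nerve endings, had the smallest p of the 6. In high fat replicates 1, 2, 5 and 8 it was at 15.5, 27.7, 20.0 and 25.4 CPM. Chow replicates 1, 5 and 8 were at 51.0, 55.3 and 38.7 CPM, and chow replicate 2 had 20.9 CPM. The first 3 of these chow libraries lay above all 4 high fat libraries, and chow replicate 2 lay among them, so the diets overlapped. The mean was 22.1 ± 5.46 CPM on high fat diet, against 41.4 ± 15.4 CPM on chow (SD, n = 4 each). The log2 fold was -0.90 ± 0.31 (SE), with a 95% interval from -1.60 to -0.21, an unadjusted p of 0.0163 and an adjusted p of 0.753 by edgeR, which did not pass. The exact permutation test gave p = 0.0857 (two-sided, n = 4 each), where the smallest p that 70 assignments allow is 0.0286. Without chow replicate 2 the log2 fold was -1.12 ± 0.22 and the adjusted p was 0.0552 by edgeR, which did not pass. That library was singled out because its marker sums stood with the high fat libraries, so leaving it out can widen differences between the diets. Without it 19.4% of all genes had an unadjusted p under 0.05 by edgeR, beside 4.27% with it.

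Summed markers of several cell types, those of the central amygdala among them, followed the same split as Grm4. All 7 oligodendrocyte markers had counts in every library, and they summed to 3937 to 8561 CPM with high fat diet. With chow they summed to 14377, 18669 and 13038 CPM in replicates 1, 5 and 8, and to 3029 CPM in replicate 2. Those of striatal projection neurons summed to 3835, 1703 and 2457 CPM in chow replicates 1, 5 and 8, and to 408 CPM in chow replicate 2. The same 3 chow libraries were therefore high for Grm4 and for both lists. The central amygdala list split likewise, at 1047, 910 and 900 CPM in chow replicates 1, 5 and 8. It was at 522 CPM in chow replicate 2 and at 501 to 760 CPM with high fat diet. With high fat diet and in chow replicate 2, the GABAergic list reached at most 1866 CPM and the microglia list 333 CPM. In chow replicates 1, 5 and 8 they were at least at 2019 and 391 CPM. The sum of the 8 thalamic markers reached 636 and 373 CPM in chow replicates 5 and 8 but 145 CPM in chow replicate 1, where Shox2, one of these markers, was at 0, and it was 87.7 to 216 CPM with high fat diet. The part of these cells in the Grm4 values was not tested.

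Grm7 encodes a presynaptic receptor with low affinity for glutamate. In high fat replicates 1, 2, 5 and 8 it was at 58.9, 56.8, 69.2 and 51.4 CPM. The chow libraries, in the same order, had 34.6, 70.3, 51.4 and 49.3 CPM. As with Grm5, chow replicate 1 was lowest and chow replicate 2 highest. The log2 fold was 0.20 ± 0.21 (SE; adjusted p = 0.803 by edgeR), and 0.046 without chow replicate 1, whose marker sums are given above. Grm8, a further group III receptor of nerve endings, was the least abundant, at 143 to 316 counts per library. High fat replicates 1, 2, 5 and 8 had 8.40, 12.3, 17.2 and 7.85 CPM of it, against 14.2, 16.9, 10.6 and 13.1 CPM in the chow replicates in that order. Its diets overlapped, and the log2 fold was -0.26 ± 0.27 (SE; adjusted p = 0.806 by edgeR). That fold was -0.52 without high fat replicate 5. It was -0.14 when high fat replicate 1 or chow replicate 2 was left out, and -0.12 when high fat replicate 8 was. At the lowest of these counts, counting error alone is 8.36% of the value, while the libraries of Grm8 had a coefficient of variation of 28.0%.

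The study's comparison asked how gene expression differs between the diets, and none of the 6 receptor genes passed it. At an adjusted p under 0.05, edgeR called 0 of 6, beside 0 of 15186 genes tested (0%). At an unadjusted p under 0.05 there was 1 of 6, Grm4, beside 4.27% of all genes. Its fold was negative, as for 2.63% of all genes at that p. DESeq2 and limma-voom also called 0 of 6, each with 1 at an unadjusted p under 0.05. With the library number as a block, or with chow replicates 5 and 8 left out together, none of the 6 was below that p by edgeR. The unadjusted edgeR p of Grm4 was 0.0630 in the block fit, and 0.108 in the fit without those chow libraries. In 0 of 6 did the 4 libraries of one diet all lie above those of the other, beside 1.36% of all genes. The median log2 fold was -0.0094 over the 6 and -0.012 over all genes, with 3 of the 6 positive and 3 negative. Exact permutation p ranged from 0.0857 for Grm4 to 0.486 for Grm2 (two-sided, n = 4 each, not adjusted over the 6). The 95% intervals of Grm3, Grm5, Grm7 and Grm8 ran from -0.63 to 0.19, -0.42 to 1.36, -0.27 to 0.67 and -0.88 to 0.35. Without chow replicate 2 edgeR called 116 of 15303 genes (0.758%) and 0 of the 6. At an unadjusted p under 0.05 there were then 2 of the 6, Grm2 and Grm4, beside 19.4% of all genes, and the log2 folds of Grm3, Grm5 and Grm7 were -0.34, 0.79 and 0.39.

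**Figure D3:**
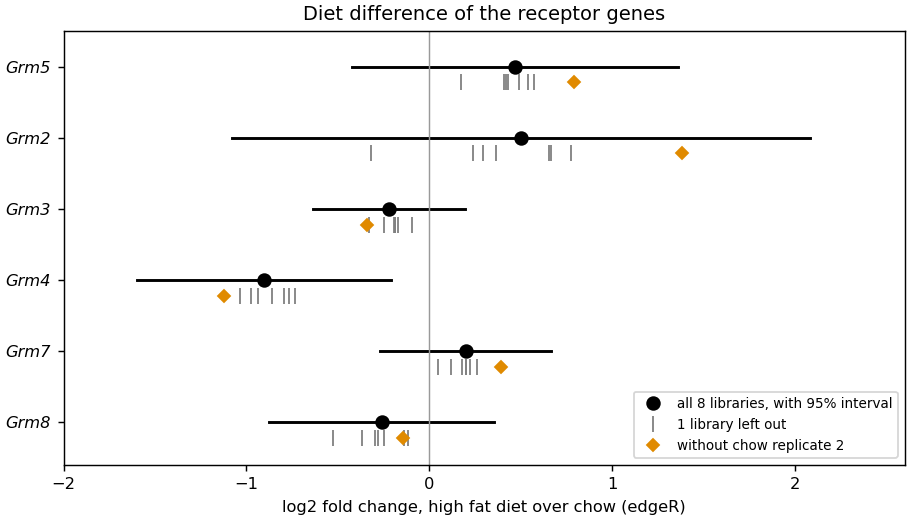
Log2 fold change of each receptor gene, high fat diet over chow, by edgeR. Circles show all 8 libraries with the 95% interval, grey ticks the values with 1 library left out, and orange diamonds those without chow replicate 2. The interval of Grm4 ends at -0.21 and those of the other 5 genes span 0.

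The 6 genes did not vary as 1 block. The distance used here is the mean absolute difference over the 8 libraries between log2 CPM values centred on their own mean, a description on the log2 scale. The closest pairs were Grm5 with Grm7, at 0.34, and Grm7 with Grm8, also at 0.34, and the farthest was Grm2 with Grm4, at 1.29. Grm5 and Grm4 were 1.02 apart. Within group III, Grm4 was 0.75 from Grm7 and 0.61 from Grm8, and it was nearer to the group II gene Grm3, at 0.40. In group II, Grm2 and Grm3 were 0.96 apart. The distance is not scaled by spread, so genes with a small spread lie close whether or not they rise and fall together. The SD of log2 CPM was 0.32 for Grm7 and 1.07 for Grm2.

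**Figure D4:**
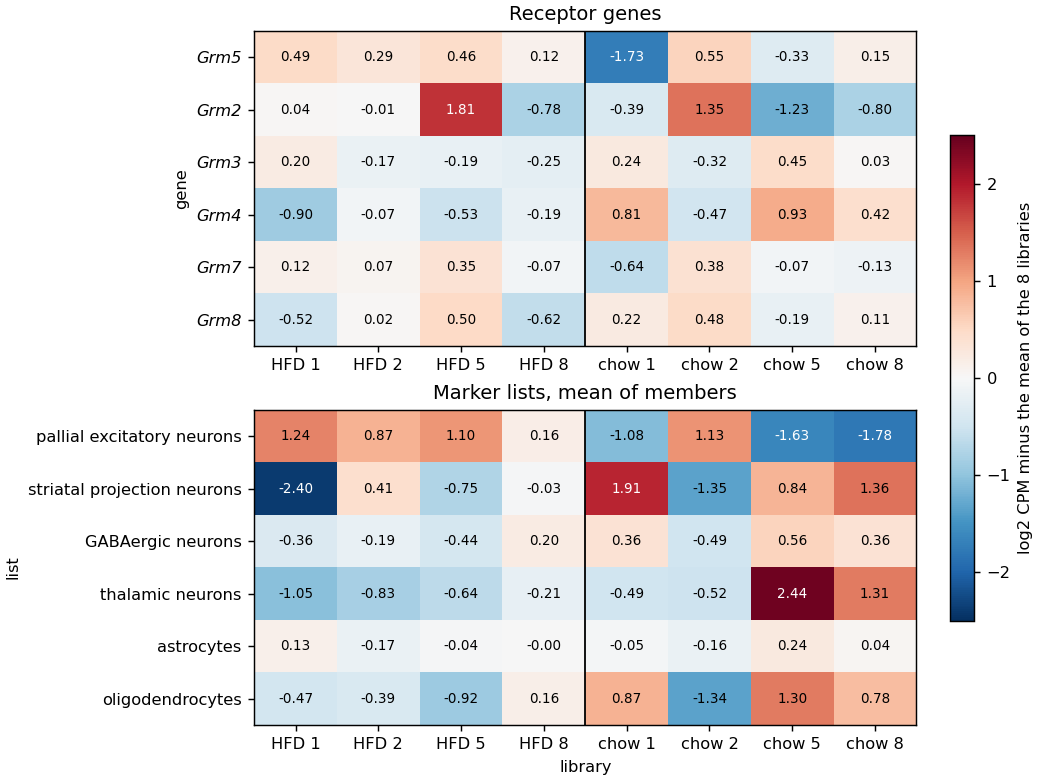
Log2 CPM minus the mean of the 8 libraries for the receptor genes (top) and the same averaged over the members of each marker list (bottom), by library (HFD, high fat diet). Grm4 is at 0.81, 0.93 and 0.42 in chow replicates 1, 5 and 8, and at -0.47 in chow replicate 2. In chow replicates 1, 5 and 8 the striatal, oligodendrocyte and GABAergic lists are also above 0, as is the central amygdala list, which is not shown. In high fat replicate 8, with Grm4 at -0.19, the GABAergic, oligodendrocyte and central amygdala lists are above 0 too, at 0.20, 0.16 and 0.30. In high fat replicate 2, with Grm4 at -0.066, so are the striatal and central amygdala lists, at 0.41 and 0.25.

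By the same distance, among genes whose mean was 5 CPM or more, the 3 nearest to each receptor gene over the 8 libraries were as follows. Grm3 was nearest to Sema4d, a semaphorin (0.049), Fzd6, a Wnt receptor (0.058), and Abtb2 (0.075). Grm7 was nearest to Zfp382 (0.044), the progesterone receptor gene Pgr (0.050) and Zbtb44 (0.051). Those nearest to Grm5 were Rabgap1l (0.095), Pkd1l3 (0.096) and the heparan sulfate sulfotransferase gene Ndst3 (0.10). Those nearest to Grm4 were Tmod1, a tropomodulin (0.10), Elmo1, a regulator of Rac signalling (0.12), and BC034090 (0.15). For Grm8 they were A2ml1 (0.13), the semaphorin receptor gene Plxnd1 (0.16) and Tiam2 (0.17). For Grm2, the least alike, they were the fibronectin gene Fn1, Tshz3 and Col23a1, a collagen gene, each at 0.34. Genes with a small spread lie close to many others, so the distances of Grm3 and Grm7 are not on equal terms with those of Grm2.

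Around the receptors, 47 genes of glutamate handling and receptor signalling are described, and all 47 were tested. By edgeR, 0 passed in either direction, and at an unadjusted p under 0.05 there was 1 with a positive fold, Arrb2, and 1 with a negative fold, Adcy5, beside 1.65% and 2.63% of all genes. Without chow replicate 2 there were 18 of the 47 at that p, beside 19.4% of all genes, and 0 passed. The median log2 fold over all 8 libraries was 0.13 over the 47, beside -0.012 over all genes. Folds were positive for 30 of the 47, beside 7314 of 15186 genes tested. Grm6, a group III receptor that is not among the 6, had 0 to 4 counts per library and was not tested.

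Of the scaffold genes, which anchor receptors at synapses, 10 of 11 had positive folds, beside 7314 of 15186 genes tested. The median fold of the scaffold genes was 0.40, and 0 passed. The largest was that of Dlgap1, which links receptors to the postsynaptic density, at 0.77 ± 0.38. Homer3, whose product ties group I receptors to calcium stores, had 0.64 ± 0.32. It was at 54.0 CPM in high fat replicate 1, beside 18.7 to 33.8 CPM in the other high fat libraries. Without high fat replicate 1 the Homer3 fold was 0.29. In chow replicate 2 Dlgap1 was at 509 CPM, and in the other chow libraries at 149.6 to 215 CPM, beside 313 to 569.5 CPM with high fat diet, which is the split that the pallial list shows. Its fold was 1.30 without chow replicate 2 (adjusted p = 0.0509 by edgeR). The part of pallial tissue in it was not tested. Among glutamate release and uptake genes 5 of 8 folds were positive and 0 passed. Slc1a1, a neuronal glutamate transporter, had 0.44 ± 0.21. Slc17a7, the vesicular glutamate transporter of pallial neurons, had 1.34 ± 0.76 and ran from 81.8 CPM in chow replicate 8 to 1724 CPM in high fat replicate 1. It was at 1265 CPM in chow replicate 2, without which its fold was 2.67 (adjusted p = 0.0535 by edgeR).

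Of the 4 genes that make or break down N-acetylaspartylglutamate, 1 had a positive fold and 0 passed. Rimkla, a synthetase of this peptide, was at -0.40 ± 0.27 and Naalad2, a peptidase, at -0.43 ± 0.29. The level of Naalad2 was low, with means of 1.94 CPM on high fat diet and 2.62 CPM on chow. In Gq signalling, which serves Grm5, 4 of 6 folds were positive and 0 passed. Gnaq, which encodes the alpha subunit of Gq, had 0.42 ± 0.22 and Plcb3, a phospholipase C, -0.29 ± 0.14. As for Grm5, chow replicate 1 held the least Gnaq, at 126 CPM, beside 213 to 317 CPM in the other 7 libraries, and without it the fold was 0.23. Of the Gi/o and adenylyl cyclase genes, which serve groups II and III, 5 of 9 were positive and 0 passed. Adcy5, the main adenylyl cyclase of the striatum, stood at 215, 301, 216 and 243 CPM for high fat replicates 1, 2, 5 and 8. In chow replicates 1, 2, 5 and 8 it was at 549, 196, 351 and 434 CPM, so like Grm4 it was high in 3 chow libraries and not in replicate 2. Its log2 fold was -0.65 ± 0.29 (unadjusted p = 0.0486 and adjusted p = 0.753 by edgeR), and -0.87 without chow replicate 2 (adjusted p = 0.0668) or -0.43 without chow replicate 1. Adcy9 had 0.54 ± 0.29, and 0.27 without high fat replicate 1.

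Among desensitisation genes and trans-synaptic partners 5 of 9 folds were positive and 0 passed. Arrb2 encodes a beta-arrestin that uncouples receptors from G proteins. High fat replicates 1, 2, 5 and 8 gave 57.0, 56.5, 58.5 and 55.1 CPM. With chow it was at 48.9, 49.6, 43.4 and 43.2 CPM. All 4 high fat libraries lay above all 4 chow libraries, chow replicate 2 included, an order that 0.645% of all genes shared. Its log2 fold was 0.29 ± 0.10 (SE), with an unadjusted p of 0.0172 and an adjusted p of 0.753 by edgeR, which did not pass. The exact permutation p was 0.0286 (two-sided, n = 4 each), the smallest that the design can give. Rgs4, which speeds the shut-off of Gi/o and Gq proteins, had -0.48 ± 0.22.

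**Figure D5:**
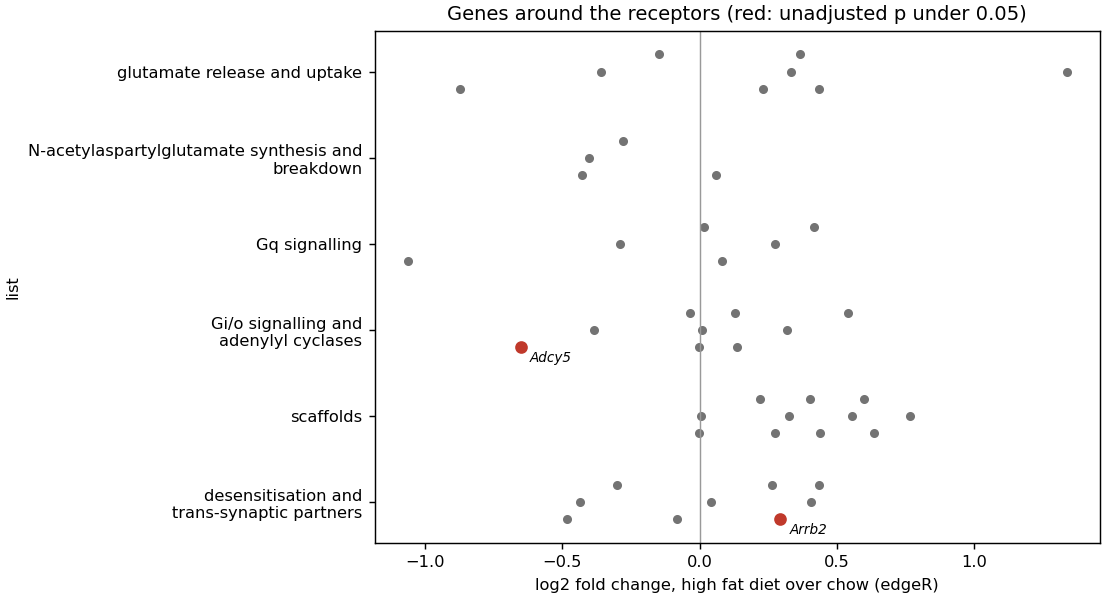
Log2 fold change, high fat diet over chow, by edgeR, of the 47 tested genes around the receptors, by list; dots are genes, spread in height only to keep them apart. Red marks Adcy5 and Arrb2, at -0.65 and 0.29, the 2 genes with an unadjusted p under 0.05.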

How the data were processed

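The authors deposited 1 table of estimated counts per gene and library, and 35.2% of these values were not whole (tolerance 1e-06). It also holds the authors' FPKM and TPM, averaged within each diet, per the file headers. Bowtie2 2.2.5, RSEM 1.2.8 and mm10 appear in the submitters' processing notes, without roles. Neither the annotation nor any use of strand in counting is given in the sources used here. Tissue was frozen, RNA extracted with Trizol, and poly(A) RNA sequenced as single 50-base reads on a BGISEQ-500, per the labels' protocols.

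Estimated counts were rounded. Genes were kept by filterByExpr (15186 of 18983) and scaled by TMM. Diets were compared by the two-sided quasi-likelihood test of edgeR 4.0.16 (R 4.3.3), with no covariate, Benjamini-Hochberg adjustment over all tested genes and a threshold of 0.05. The SE of a log2 fold is its size over the square root of F. CPM use TMM-scaled totals, and log2 CPM a prior count of 2. The deposited FPKM served only to derive lengths. The test was checked on simulated data at the same threshold. It recovered 34.3% of genes changed 2-fold, 83.6% of those changed 4-fold and 97% of those changed 8-fold. There were 9 false calls among 14986 unchanged genes. A 2-fold change could thus be missed.

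The members and lists were chosen with earlier results of these data known. Some listed genes are not reported here, and the pathway lists and their counts leave them out. Named are the 6 members, the 2 genes of each pathway list with the smallest p where none passed, and the 3 nearest profiles of each member. Alternatives were RLE and upper-quartile factors, other filters (a sum of at least 1 count, a mean of at least 50 counts), the library number as a block, leaving out libraries, DESeq2 1.42.0, limma-voom (limma 3.58.1) and an adjusted p under 0.1.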

Additional observations from a re-analysis of the deposited data

Results flagged for a closer look

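In 3 of the 12 sets of 4 CPM values (6 genes, 2 diets), 1 library lay far from the other 3 of its diet. The gap was more than 0.829 of the whole range, a limit that chance passes in about 1 of 20 sets of normally distributed values. That rate was not checked for CPM values. The rule was applied to CPM, not to log2 CPM, so the flags hold for the CPM scale only. Grm2 was at 77.0 CPM in high fat replicate 5 (gap 0.848 of the range). The same gene was at 56.0 CPM in chow replicate 2 (gap 0.842). Grm3 was at 61.6 CPM in high fat replicate 1 (gap 0.850).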

How the results depend on the processing

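None of the 6 receptor genes passed under any of the 17 alternatives run, and Grm3, Grm4, Grm5, Grm7 and Grm8 kept their sign in all 17. Over these, the log2 fold of Grm4 ran from -1.12 to -0.70, with an adjusted p of 0.0552 to 0.975. Grm2 turned to -0.32 without high fat replicate 5 and to -0.12 with chow replicates 5 and 8 left out together, and ran from -0.32 to 1.38 with 1 library left out. Of 203 values of the 12 named pathway genes under alternatives, 201 kept sign and side of the threshold and 2 turned. With chow replicates 5 and 8 left out together Rimkla and Naalad2 were at 0.055 and 0.057. The count of all genes called was 0 to 116 with 1 library left out, the 116 coming without chow replicate 2, and 0 otherwise. At an unadjusted p under 0.05 it was 649, with 131 to 2972 when 1 library was left out, 426 without chow replicates 5 and 8, and 990 by DESeq2. Of the 5 neighbouring pairs in the order of levels, 3 held in the authors' mean TPM with high fat diet, where Grm7 was above Grm3 and Grm2 above Grm4, and 3 held within high fat replicate 5 and chow replicates 1, 2 and 5. Across genes, the libraries numbered 8 deviated together (r = 0.39) and those numbered 1, 2 and 5 did not (r = 0.013, -0.043 and 0.035). Libraries of unlike number ran from r = -0.56, for high fat replicate 8 with chow replicate 2, to 0.32, for high fat replicate 5 with chow replicate 2. The numbers were therefore not taken as pairs. With the number as a block the log2 folds of Grm2, Grm3, Grm4, Grm5, Grm7 and Grm8 were 0.45, -0.20, -0.86, 0.65, 0.24 and -0.32, and 0 genes were called, with 572 at an unadjusted p under 0.05. With 4 libraries per diet, the median of 230.5 counts for Grm8 and of 4648.5 for Grm5 leaves the spread between libraries, not depth, as the limit. The causes of these shifts were not tested.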

Other observations

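The ratio of Grm5 to Grm4 per kilobase, chosen after the values were seen, was 8.90, 4.36, 6.77 and 4.21 in high fat replicates 1, 2, 5 and 8. In chow replicates 1, 2, 5 and 8 it was 0.582, 6.92, 1.42 and 2.82. Chow replicate 1 was the one library with more Grm4 than Grm5 per kilobase. Within group II, Grm2 exceeded Grm3 per kilobase in high fat replicate 5, at a ratio of 1.74, and in chow replicate 2, at 1.39. In the other 6 libraries that ratio was between 0.135 and 0.486.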
